A study of Mus musculus with 8 samples.

Results

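Gene expression of peritoneal macrophages that lacked the α7 nicotinic acetylcholine receptor was compared with that of wild type macrophages after both had been given lipopolysaccharide (LPS), using 4 of the 8 libraries of the study. These 4 were chosen by their labels. They were wild type given vehicle then LPS, wild type given nicotine then LPS, and knockout cells (α7nAChR-/-) with each of the same treatments. The strain was C57BL/6 in all of them, nicotine was at 10 µM for 15 min and LPS was at 100 ng/ml for 4 h. The other 4 libraries, from both genotypes with vehicle or nicotine and no LPS, showed which differences were also there without LPS. They also entered the fits of all 8 libraries, the fits with a library left out and the genotype-by-LPS term. Each group had 1 library, so the knockout and wild type libraries were paired by nicotine. The LPS pair holds the 2 libraries given LPS after vehicle, and the nicotine-LPS pair the 2 libraries given LPS after nicotine. Neither the number of mice nor the number of cell preparations behind a genotype is in the labels. Genotype and preparation therefore cannot be told apart, and a p-value measures no spread between replicate libraries. The age of the mice and the nature of the deletion are not given in the labels.

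Macrophages are phagocytes that sense LPS, a component of the outer membrane of Gram-negative bacteria, through Toll-like receptor 4. The receptor signals through MyD88 to NF-kB, which switches on cytokine genes such as Tnf and Il6, and through TRIF to IRF3, which switches on Ifnb1, the gene of interferon β. Secreted interferon β then acts back on the cells through its receptor and induces antiviral and GTPase genes. The α7 receptor, an ion channel opened by acetylcholine and nicotine and encoded by Chrna7, is known for dampening inflammatory cytokine release in the pathway by which the vagus nerve restrains inflammation.

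Values were FPKM, fragments normalised to transcript length and library size, and differences are knockout minus wild type on the scale log2(FPKM + 1), which understates the differences of low genes. A gene was tested if it reached 5 FPKM in any of the 4 libraries, which 8014 of 24339 genes did. The FPKM summed over all genes was 795630 in wild type with LPS, 657052 in wild type with nicotine and LPS, 854016 in knockout with LPS and 627160 in knockout with nicotine and LPS. The depth in fragments was not given. Chrna7 (minus strand of chromosome 7, from 63098692 to 63212569 on GRCm38) had 0 FPKM in every library, wild type included, so its values checked nothing about the genotype labels. Of the 92 genes within 10 Mb of it, 16 were tested and none was called by limma, with a median difference of -0.15. Limma called 0.761% of all genes tested higher and 0.2% lower, so no call among 16 says little. The macrophage gene Adgre1, which encodes F4/80, was at 298 and 342 FPKM in the wild type libraries and 421 and 319 FPKM in the knockout ones, in the order LPS pair then nicotine-LPS pair. The Y-linked gene Ddx3y lay between 27.7 and 34.2 FPKM in the 4 libraries and Xist did not exceed 0.0234 FPKM. A low or 0 value may be a failed estimate: Gapdh, used by every cell, lay between 2.11 and 8.90 FPKM in these libraries.

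More genes were higher than lower in the knockout libraries with LPS. At least 2-fold in the same direction in both pairs, 151 genes were higher (1.88% of those tested) and 49 lower (0.611%). Taking direction alone, 2596 genes lay above 0 in both pairs (32.4%) and 2635 below 0 in both (32.9%), so the excess of higher genes was in the large differences. The limma fit, with the pairing by nicotine as a term and 1 residual degree of freedom, called 61 genes higher (0.761%) and 16 lower (0.2%) at an adjusted p under 0.05, all of them among the 200 with 2-fold differences in both pairs. The spread in this fit is how far the 2 pairs depart from each other, drawn toward that of other genes. A genotype difference that changes with nicotine is therefore counted as spread. The differences of the LPS pair and the nicotine-LPS pair, which share no library, had a Pearson correlation of 0.526 and a Spearman correlation of 0.44 across the 8014 genes, which are not independent of each other. Against the vehicle and nicotine pairs without LPS, the Pearson correlations were 0.651 and 0.676 for the nicotine-LPS pair. For the LPS pair they were 0.409 and 0.354. The calls depended on the fit: none was made without the filter on low values or with genotype as the only term. Each of the 4 libraries was also left out in turn, from a fit of all 8 libraries. The remaining libraries with LPS are then fitted exactly. The spread of such a fit therefore came only from the 4 libraries without LPS, as the departure of their pairs from each other. Of the called genes named below, Socs1, Ifit2, Tpi1 and Gsta3 were not called without any one of the 4 libraries, Gbp9, Slc16a3 and Pydc3 without either library of the nicotine-LPS pair, Mmp9 without either of the LPS pair, Ifng without 3 of the 4 and Tlr3 without knockout with nicotine and LPS. Of the genes given below as not called, Il22, Lcn2, Cfb, Ptgis, Pltp, Trem2 and Cd209b were called without any one of the 4 libraries, Il1b, C4b and Gbp2 without either library of the LPS pair, and Il23r without either of the nicotine-LPS pair. These fits share the model of the fit of all 8 libraries rather than that of the 4. With none left out, the fit of all 8 libraries called 178 genes. Of the genes named here it did not call Socs1 and Ifit2, and it did call Rsad2, Il22, Ptgis, Pltp, Trem2 and Cd209b. Such changes thus cannot be credited to a left-out library alone. The values of both pairs are therefore given beside most calls. All standard errors (SE) below are from the limma fit with n = 2 libraries per genotype.

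**Figure D1:**
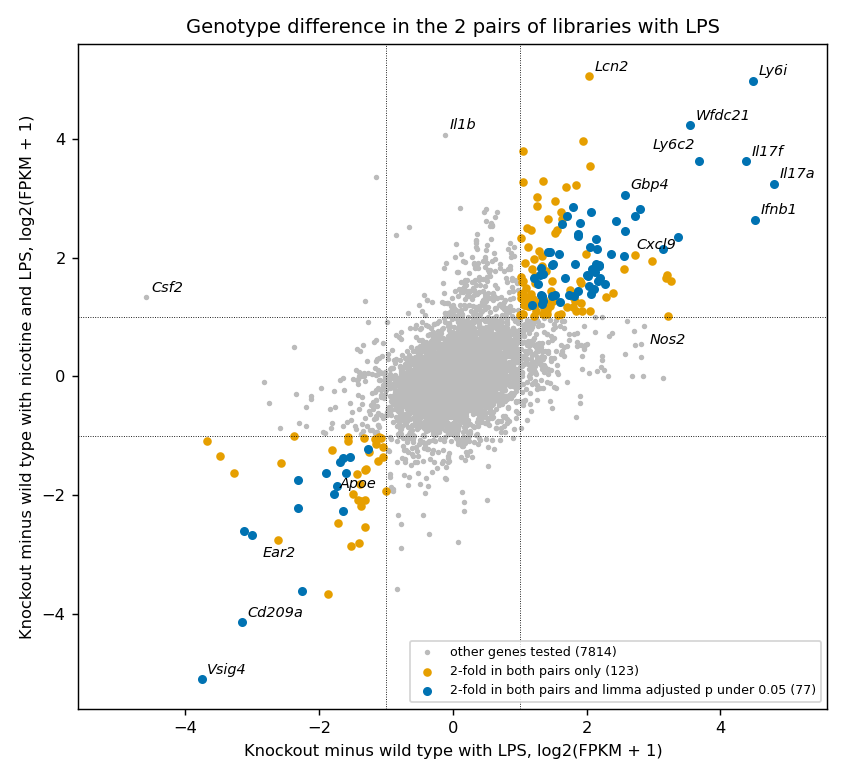
Knockout minus wild type difference of each tested gene on the scale log2(FPKM + 1), in the LPS pair (x axis) and in the nicotine-LPS pair (y axis); each point is a gene and dotted lines mark 2-fold. The 200 genes beyond 2-fold in both pairs lie in the upper right (151) and lower left (49), with Ly6i and Vsig4 at the ends, while Il1b lies far from 0 in the nicotine-LPS pair only and Csf2 has opposite signs in the 2 pairs.

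Ifnb1, on chromosome 4 (88522025 to 88522774, minus strand), was higher in the knockout libraries with LPS. It was at 6.21 FPKM in wild type with LPS, 20.6 FPKM in wild type with nicotine and LPS, 165 FPKM in knockout with LPS and 134 FPKM in knockout with nicotine and LPS. Both knockout values lay above both wild type values, and the gene was listed at 0 in all 4 libraries without LPS. The log2 difference was 4.52 in the LPS pair and 2.64 in the nicotine-LPS pair, with a mean of 3.58 ± 0.45 (SE; limma adjusted p = 0.0489). Tnf, encoding tumor necrosis factor and an early target of NF-kB, was at 4806 and 3118 FPKM in wild type and 4794 and 2821 FPKM in knockout, LPS pair first in each case, a log2 difference of -0.07 ± 0.18 (limma adjusted p = 0.866). Of 27 tested genes for the inhibitors and subunits of NF-kB and other feedback regulators, 6 lay above 0 in both pairs and 5 below. Over all genes tested, 32.4% lay above 0 in both pairs and 32.9% below. The list's median was 0.01 and turned to -0.08 under quantile normalization. Without LPS the list's medians were 0.72 in the vehicle pair and 0.03 in the nicotine pair. Nfkbia, the gene of the inhibitor IκBα, was at 1009 and 469 FPKM in wild type and 950 and 501 FPKM in knockout. The member of that list that was called, Socs1, is induced by interferons and inhibits the JAK kinases. Socs1 was at 140 and 16.3 FPKM in wild type and 399 and 63.6 FPKM in knockout (log2 difference 1.70 ± 0.19, 3.25-fold; limma adjusted p = 0.0449, and 0.213 to 0.253 with 1 of the 4 libraries left out).

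Genes that interferons induce lay higher in the knockout libraries nearly throughout, and by more in the nicotine-LPS pair. Of 40 tested interferon-stimulated genes, 37 lay above 0 in both pairs, against 32.4% of all genes tested, and none lay below 0 in both. Their median difference was 0.34 in the LPS pair and 1.71 in the nicotine-LPS pair, against 0.02 and -0.02 over all genes tested. The list also lay above 0 without LPS, where Ifnb1 was listed at 0, with a median of 1.47 in the vehicle pair and 1.17 in the nicotine pair. Most of these differences were below 2-fold in the LPS pair. Of the 40, limma called only Ifit2, which encodes an RNA-binding antiviral protein, against 0.761% of all genes called higher. Ifit2 was at 302 FPKM in wild type with LPS and 35.1 FPKM in wild type with nicotine and LPS, and at 1107 and 185 FPKM in the matching knockout libraries (2.12 ± 0.21, 4.34-fold; limma adjusted p = 0.0358, and 0.0784 to 0.117 with 1 of the 4 libraries left out). Rsad2, encoding the antiviral enzyme viperin, was at 2321 and 364 FPKM in wild type and 5217 and 948 FPKM in knockout, more than 2-fold higher in both pairs (limma adjusted p = 0.0601). Cmpk2 and Ifi44 were the other 2 members beyond 2-fold in both pairs, which makes 4 of 40, against 1.88% of all genes. Mx1, a dynamin-like antiviral GTPase, shows the difference between the pairs: 571 against 899 FPKM in the LPS pair and 19.6 against 139 FPKM in the nicotine-LPS pair. Isg15, a ubiquitin-like modifier, differed by less than 2-fold in both pairs, at 3439 and 3488 FPKM in wild type and 4675 and 4043 FPKM in knockout.

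The interferon-inducible GTPases, guanylate-binding proteins and immunity-related GTPases that act on the vacuoles of intracellular pathogens, showed the same order of the pairs. All 17 tested members lay above 0 in both pairs (against 32.4% of all genes), with a median of 0.59 in the LPS pair and 2.28 in the nicotine-LPS pair. Without LPS their medians were 1.61 in the vehicle pair and 0.80 in the nicotine pair, both above that of the LPS pair. At least 2-fold higher in both pairs were 7 of them (Gbp4, Gbp6, Gbp9, Gbp10, Gbp11, Iigp1 and Tgtp1), against 1.88% of all genes. Limma called Gbp4 and Gbp9 higher, against 0.761% of all genes. Gbp4 (chromosome 5, 105115767 to 105139586) was at 35.4 FPKM in wild type with LPS, 3.50 FPKM in wild type with nicotine and LPS, 214 FPKM in knockout with LPS and 36.6 FPKM in knockout with nicotine and LPS. Its log2 difference was 2.81 ± 0.19 (7.03-fold; limma adjusted p = 0.0217). Gbp2, the most abundant GBP gene here, was at 1322 and 181 FPKM in wild type and 2506 and 562 FPKM in knockout, and was not called (limma adjusted p = 0.1). Guanylate-binding protein genes are near-identical copies in places, as are Tgtp1 and Tgtp2, so how fragments were split between neighbours is uncertain.

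Promoters of Ifnb1, Cxcl9, Tgtp1, Socs1 and Vsig4 are shown with their matches to short motifs of interferon and NF-kB signalling. The sequences are the 250 bases before the RefSeq start on GRCm38.p6, 5′ to 3′, and capitals mark 3 searched motifs, each on either strand: GAAANNGAA (the core of the interferon-stimulated response element, ISRE), TTCCNGGAA (the interferon γ activated site, GAS) and GGAANTTCC (an NF-kB site). Ifnb1 holds 1 NF-kB match, 115 bases before the start, and Cxcl9 1 ISRE core at 175 bases. Tgtp1 holds a GAS match 88 bases and an ISRE core 77 bases before its start, and Socs1 holds 2 overlapping ISRE cores at 83 and 77 bases. Vsig4, the gene furthest below 0, holds none of the 3.
Ifnb1 chr4:88522795-88523044, minus strand: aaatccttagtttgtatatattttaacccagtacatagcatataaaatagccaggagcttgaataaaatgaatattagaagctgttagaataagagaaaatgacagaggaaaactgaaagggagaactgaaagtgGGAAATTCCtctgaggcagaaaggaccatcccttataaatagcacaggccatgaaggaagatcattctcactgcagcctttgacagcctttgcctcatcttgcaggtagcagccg
Cxcl9 chr5:92328080-92328329, minus strand: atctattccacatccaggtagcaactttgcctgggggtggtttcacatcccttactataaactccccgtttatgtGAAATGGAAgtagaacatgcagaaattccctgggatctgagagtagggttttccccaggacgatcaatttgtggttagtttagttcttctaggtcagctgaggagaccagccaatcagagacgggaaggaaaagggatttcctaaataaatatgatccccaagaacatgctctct
Tgtp1 chr11:48992247-48992496, minus strand: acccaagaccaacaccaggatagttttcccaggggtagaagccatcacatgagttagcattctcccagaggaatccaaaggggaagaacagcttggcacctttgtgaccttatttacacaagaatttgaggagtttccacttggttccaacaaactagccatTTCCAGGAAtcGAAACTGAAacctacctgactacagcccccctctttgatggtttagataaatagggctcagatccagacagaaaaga
Socs1 chr16:10785537-10785786, minus strand: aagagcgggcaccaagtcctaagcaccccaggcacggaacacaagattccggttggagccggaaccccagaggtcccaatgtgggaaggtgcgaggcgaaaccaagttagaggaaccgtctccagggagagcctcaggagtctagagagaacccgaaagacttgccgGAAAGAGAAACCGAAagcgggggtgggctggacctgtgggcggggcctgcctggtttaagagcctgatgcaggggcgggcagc
Vsig4 chrX:96293439-96293688, minus strand: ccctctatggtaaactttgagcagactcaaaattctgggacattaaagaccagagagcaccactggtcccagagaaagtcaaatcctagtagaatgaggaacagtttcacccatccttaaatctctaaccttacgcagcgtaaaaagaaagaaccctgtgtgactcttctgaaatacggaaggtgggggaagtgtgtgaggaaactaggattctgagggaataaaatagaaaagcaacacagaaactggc
Over all tested genes with a promoter in the RefSeq table (6187), 8.21% held the ISRE core in this window, 1.24% the GAS motif and 1.21% the NF-kB motif. The ISRE core was in 19.8% of the 106 genes with a promoter that were at least 2-fold higher in both pairs, and in 11.1% of the 36 that were at least 2-fold lower. The NF-kB motif was in 5.66% of those 106 higher genes and the GAS motif in 2.83%, and each was in 0% of the 36 lower genes. The ISRE core was held by 45.2% of 31 genes of the interferon-stimulated list and by 90% of 10 of the GTPase list. A match of these letters is a description of the sequence, and no match says only that the letters are not in this window. It does not show that a promoter, that of Ifnb1 included, lacks sites for IRF factors.

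**Figure D2:**
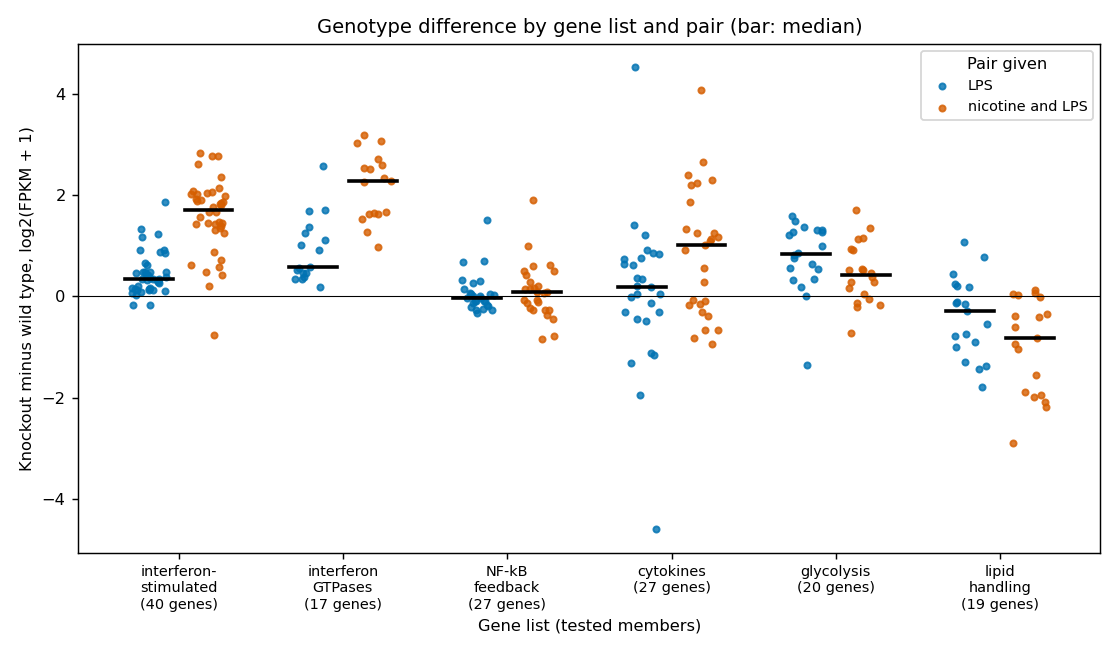
Knockout minus wild type difference on the scale log2(FPKM + 1) of the tested members of 6 gene lists (each point is a gene; the bar is the list's median), in the LPS pair (blue) and the nicotine-LPS pair (orange). The interferon-stimulated genes have medians of 0.34 and 1.71 and the GTPases 0.59 and 2.28. The NF-kB feedback genes have medians of -0.03 and 0.09 and scatter to both sides of 0.

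Il17a and Il17f, neighbouring genes on chromosome 1 that encode the cytokines interleukin 17A and 17F, were among the furthest above 0. Il17a was at 0.996 FPKM in wild type with LPS, 0.0865 FPKM in wild type with nicotine and LPS, 54.9 FPKM in knockout with LPS and 9.31 FPKM in knockout with nicotine and LPS (log2 difference 4.03 ± 0.40; limma adjusted p = 0.0365). Il17f was at 1.48, 0.0859, 50.8 and 12.4 FPKM in the same order (4.00 ± 0.26; limma adjusted p = 0.0217). Both genes were low in all 4 libraries without LPS, at no more than 1.33 FPKM. Ifng, the gene of interferon γ, was also called, at 5.85 and 0.167 FPKM in wild type and 39.3 and 3.78 FPKM in knockout (2.29 ± 0.23; limma adjusted p = 0.0365). Il22, a cytokine gene that lymphocytes express together with Il17a, was at 3.61 and 0 FPKM in wild type and 35.4 and 2.86 FPKM in knockout (limma adjusted p = 0.0525), and Il23r, the receptor that drives this program, at 0.417 and 0 against 12.2 and 1.03 FPKM (adjusted p = 0.213). These cytokines are mainly known from T cells and innate lymphocytes, whose markers were low. Of 19 such markers measured, 6 reached 5 FPKM and none was called, against 0.761% of all genes called higher and 0.2% lower. Of those 6, 3 lay above 0 in both pairs (against 32.4% of all genes) and 2 below (against 32.9%). Their medians were 0.38 in the LPS pair and -0.04 in the nicotine-LPS pair. The T cell receptor subunit gene Cd3e, below the 5 FPKM filter, lay between 0.467 and 1.84 FPKM, without separating the genotypes. Lck, a tested marker, was at 4.76 and 6.38 FPKM in wild type and 9.32 and 7.36 FPKM in knockout (limma adjusted p = 0.354). The markers summed to 34.3 and 121 FPKM in wild type and 52.4 and 101 FPKM in knockout, and their part in the cytokine differences was not tested. In bulk RNA, more cells of a type and more RNA per cell cannot be told apart.

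Chemokine genes differed one by one. Of 22 tested, 12 lay above 0 in both pairs (against 32.4% of all genes) and 3 below (against 32.9%). At least 2-fold higher in both were 6 (against 1.88%), and none was lower. Limma called Ccl12, Cxcl9 and Ppbp higher, against 0.761% of all genes. Ppbp, a chemokine gene of platelets, was at 1.43 and 2.30 FPKM in wild type and 10.1 and 11.1 FPKM in knockout (limma adjusted p = 0.0438). Pf4, another platelet chemokine gene that macrophages also express, was at 615 and 249.9 FPKM in wild type and 1420 and 984 FPKM in knockout. These were the 2 tested members of the erythroid and platelet marker list, which summed to 617 and 254 FPKM in wild type and 1431 and 996 FPKM in knockout, and the part of platelets in these differences was not tested. Cxcl9, whose product recruits T cells through CXCR3 and which interferon γ induces, was at 27.0 FPKM in wild type with LPS, 0.954 FPKM in wild type with nicotine and LPS, 167 FPKM in knockout with LPS and 9.63 FPKM in knockout with nicotine and LPS (2.51 ± 0.15, 5.70-fold; limma adjusted p = 0.0215). Ccl12, a ligand of the monocyte receptor CCR2, was at 11.4, 0.257, 127 and 5.37 FPKM in the same order (2.85 ± 0.28, 7.24-fold; adjusted p = 0.0358). For both genes the knockout library with nicotine and LPS lay below the wild type library with LPS alone, so the genotypes separated only within pairs. Cxcl10, another CXCR3 ligand, was at 7244 and 509 FPKM in wild type and 10570 and 861 FPKM in knockout and was not called (limma adjusted p = 0.193). The neutrophil attractant Cxcl1 lay below 0 in both pairs, at 8755 and 5238 FPKM in wild type and 2583 and 3662 FPKM in knockout (adjusted p = 0.198).

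None of the inflammatory mediators most often measured in this pathway was called. The fit counts a departure of the pairs from each other as spread, so no call does not mean no difference. Il6 was at 7857 and 242 FPKM in wild type and 10060 and 1274 FPKM in knockout, a difference of 0.36 in the LPS pair and 2.39 in the nicotine-LPS pair (limma adjusted p = 0.264). Il1b, encoding interleukin 1β, was level in the LPS pair at 19500 and 17890 FPKM, and was 63.2 FPKM in wild type against 1076 FPKM in knockout when nicotine preceded LPS. Its pair differences of -0.12 and 4.07 gave a limma adjusted p of 0.378, and of 0.0415 without wild type with LPS and 0.0414 without knockout with LPS. Nos2, the inducible nitric oxide synthase, had the opposite order of pairs, 164 against 1189 FPKM with LPS and 1.56 against 3.61 FPKM with nicotine and LPS. Il10, an anti-inflammatory cytokine gene, was at 29.0 and 48.7 FPKM in wild type and 52.8 and 104 FPKM in knockout (0.96 ± 0.17; limma adjusted p = 0.0929). Differences of Il12b, Jak2, Socs3, Hmox1 and Hes1 lay between -0.64 and 0.16 with limma adjusted p of 0.325 or more, and Stat3 was at 120 and 51.1 FPKM in wild type and 210 and 90.4 FPKM in knockout (adjusted p = 0.121). Over the 27 cytokine genes of the list, 13 lay above 0 in both pairs (against 32.4% of all genes) and 7 below (against 32.9%). Only Ifnb1 was called higher, against 0.761% of all genes.

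**Figure D3:**
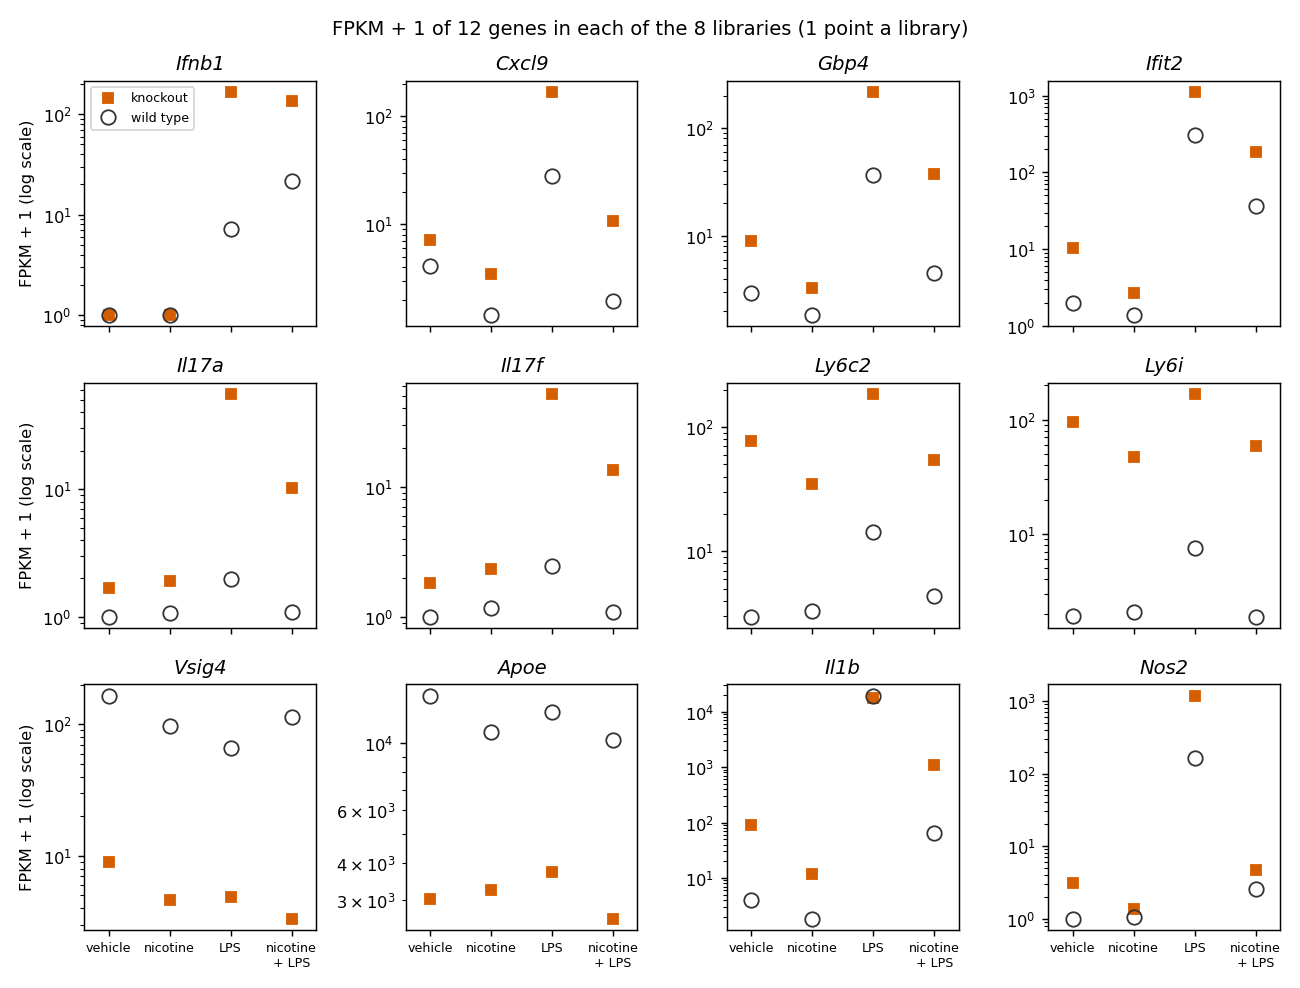
FPKM + 1 (log scale) of 12 genes in each of the 8 libraries, by treatment (x axis), with wild type as open circles and knockout as squares; each symbol is 1 library. Ifnb1 is at 0 without LPS and Il17a and Il17f are at no more than 1.33 FPKM, Ly6c2, Ly6i, Vsig4 and Apoe separate the genotypes under every treatment, and Il1b and Nos2 differ between the genotypes mainly in 1 of the 2 pairs with LPS.

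The 2 genes with the smallest adjusted p encode Ly6 surface proteins, anchored in the membrane of monocytes and other myeloid cells. Ly6i (chromosome 15, 74979534 to 74983430) was at 6.48 FPKM in wild type with LPS, 0.873 FPKM in wild type with nicotine and LPS, 168 FPKM in knockout with LPS and 58.1 FPKM in knockout with nicotine and LPS (4.74 ± 0.19, 26.7-fold; limma adjusted p = 0.00882). Ly6c2, a neighbour on chromosome 15 and the marker of inflammatory monocytes, was at 13.4, 3.39, 184 and 53.2 FPKM in the same order (3.66 ± 0.16, 12.6-fold; adjusted p = 0.00882). Both knockout libraries lay above both wild type ones for each gene. The Ly6 genes are close copies, so fragments may be shared between the pair. Further called genes included Wfdc21 (14.9-fold), Cst7 (6.57-fold), which encodes the protease inhibitor cystatin F, and the C-type lectin gene Clec4n (5.74-fold), which encodes the fungal receptor Dectin-2. Clec4n was at 113 and 119 FPKM in wild type and 612 and 730 FPKM in knockout, so nicotine made little difference to it in either genotype. Serf1, which encodes a small protein, was at 5.66 and 5.08 FPKM in wild type and 58.0 and 26.0 FPKM in knockout (limma adjusted p = 0.0365).

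Vsig4, encoding the complement receptor CRIg of resident macrophages, was the gene furthest below 0. It was at 64.6 FPKM in wild type with LPS, 114 FPKM in wild type with nicotine and LPS, 3.86 FPKM in knockout with LPS and 2.33 FPKM in knockout with nicotine and LPS (-4.43 ± 0.33, 21.6-fold lower; limma adjusted p = 0.0217). The lectin gene Cd209a, a dendritic cell marker, was at 7.87 and 18.9 FPKM in wild type and was listed at 0 and at 0.131 FPKM in knockout (-3.64 ± 0.36; limma adjusted p = 0.0362). The related Cd209b followed at 2.85 and 5.09 against 0.171 and 0.0992 FPKM without a call (adjusted p = 0.134), and the 2 are close copies. Ear2, a ribonuclease gene of a family of copies, was at 18.2 and 13.9 FPKM in wild type and 1.38 and 1.33 FPKM in knockout (-2.84 ± 0.21; limma adjusted p = 0.0217). Also called lower were F13a1, which encodes a subunit of coagulation factor XIII (4.79-fold), and Lgmn, which encodes the lysosomal protease legumain (3.87-fold). Ptgis, the prostacyclin synthase gene, was at 18.1 and 62.6 FPKM in wild type and 4.23 and 4.02 FPKM in knockout and missed the threshold (limma adjusted p = 0.0666).

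Genes of lipid handling lay mostly lower in the knockout libraries. Of 19 tested, 12 lay below 0 in both pairs (against 32.9% of all genes), 5 were at least 2-fold lower in both (against 0.611%), and the median was -0.31. Without LPS the list's medians were -0.56 in the vehicle pair and -0.72 in the nicotine pair. Apoe, the apolipoprotein that macrophages secrete for cholesterol efflux, was at 12730 and 10270 FPKM in wild type and 3708 and 2603 FPKM in knockout (-1.88 ± 0.18, 3.68-fold lower; limma adjusted p = 0.0358). It was one of the most abundant transcripts of the libraries and the list's single call. Apoc2 was at 52.0 and 37.5 FPKM in wild type and 25.4 and 9.05 FPKM in knockout, and Apoc4 at 5.10 and 5.72 FPKM in wild type and listed at 0 in both knockout libraries. Both genes lie beside Apoe on chromosome 7. Pltp, the phospholipid transfer protein, was at 224 and 196 FPKM in wild type and 83.0 and 45.8 FPKM in knockout (limma adjusted p = 0.0512), and Trem2, the lipid-sensing receptor of macrophages, at 92.5 and 170 FPKM in wild type and 35.2 and 36.6 FPKM in knockout (adjusted p = 0.0551). Fabp4, which binds fatty acids, was at 541 and 1013 against 220 and 343 FPKM. The efflux transporter gene Abca1 did not keep a direction, with 1.08 in the LPS pair and -0.39 in the nicotine-LPS pair.

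**Figure D4:**
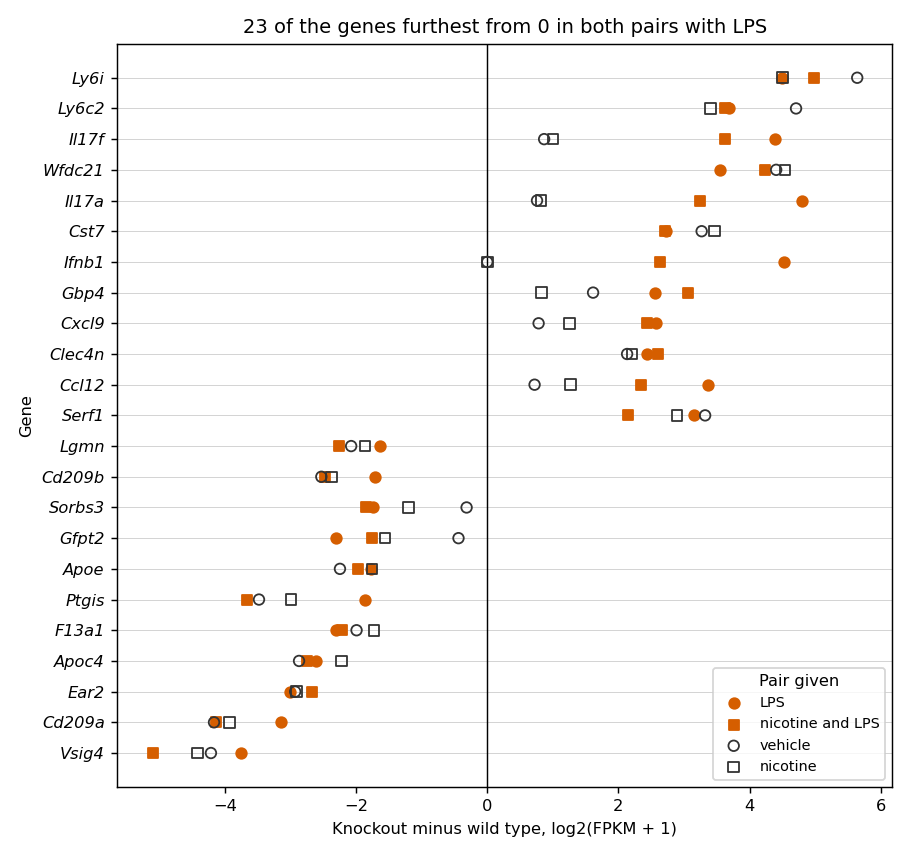
Knockout minus wild type difference on the scale log2(FPKM + 1) of the 12 genes furthest above 0 and 11 of those furthest below 0 in both pairs with LPS; filled symbols are the pairs with LPS, open symbols the pairs without it, circles without and squares with nicotine. Most genes have open and filled symbols on the same side, whereas without LPS Ifnb1 is at 0 and Il17a and Il17f do not exceed 1.00.

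Complement and acute phase genes were split. C3, the central complement component, was called, at 101 and 61.2 FPKM in wild type and 526 and 259 FPKM in knockout (2.21 ± 0.19, 4.64-fold; limma adjusted p = 0.0295). Lcn2, an iron-withholding acute phase gene, was at 59.2 and 0.13 FPKM in wild type and 246 and 36.5 FPKM in knockout (adjusted p = 0.105), and Cfb, complement factor B, at 1571 and 139 against 4000 and 1379 FPKM (adjusted p = 0.111). C4b lay below 0 in both pairs, at 436 and 331 FPKM in wild type and 278 and 101 FPKM in knockout (limma adjusted p = 0.159). Of 18 tested genes of this list, 9 lay above 0 in both pairs (against 32.4% of all genes) and 7 below (against 32.9%). Glycolysis genes lay mostly above 0, 14 of 20 in both pairs (against 32.4%) and none below in both (against 32.9%), with a median of 0.65. Tpi1, triosephosphate isomerase, was called at 35.3 and 43.5 FPKM in wild type and 101 and 113 FPKM in knockout (limma adjusted p = 0.0477), as was the lactate exporter Slc16a3 at 7.22 and 3.88 against 19.3 and 14.8 FPKM (adjusted p = 0.0489). Further called genes with known macrophage roles were Fcgr1, the high-affinity IgG receptor, Tlr3, the sensor of double-stranded RNA, Mmp9, a secreted gelatinase, and Gsta3, a glutathione transferase, all higher in knockout. Fcgr1 was at 49.0 and 1.40 FPKM in wild type and 219 and 7.85 FPKM in knockout (2.01 ± 0.16; limma adjusted p = 0.0285).

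Several lists had no call but many members on one side of 0. Over all genes tested, 32.4% lay above 0 in both pairs and 32.9% below, and limma called 0.761% higher and 0.2% lower. Of 30 ribosomal protein genes, 25 lay below 0 in both pairs and none above, with a median of -0.21. Of 30 oxidative phosphorylation genes, 26 lay above 0 in both pairs and 1 below, with a median of 0.26. Of 23 tested genes of the amino acid stress response driven by ATF4, 18 lay below 0 in both pairs and 2 above, with a median of -0.57 in the LPS pair and -0.27 in the nicotine-LPS pair. Asns, asparagine synthetase, was at 19.5 and 117 FPKM in wild type and 6.70 and 113 FPKM in knockout, so its difference was in the LPS pair. Under quantile normalization of the 4 libraries the medians of the ribosomal, oxidative phosphorylation and ATF4 lists were -0.22, 0.21 and -0.41. Of 23 tested antigen presentation genes, 17 lay above 0 in both pairs and 2 below, with a median of 0.44. Of 13 tested cell cycle genes 7 lay above 0 in both pairs and none below (median 0.52), and of 8 tested Notch pathway genes 6 lay below and none above (median -0.29).

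Markers of resident peritoneal macrophages did not move as a block. Of 22 tested, 5 lay above 0 in both pairs (against 32.4% of all genes) and 11 below (against 32.9%). Fcgr1 was called higher, against 0.761% of all genes, and Vsig4 was called lower, against 0.2%. Timd4 and Marco, a phosphatidylserine receptor and a scavenger receptor, were at least 2-fold higher in both pairs, while Gata6, the transcription factor that defines the large peritoneal macrophage, was at 13.8 and 2.45 FPKM in wild type and 4.84 and 0.814 FPKM in knockout (limma adjusted p = 0.138). Summed over the 26 markers, the level was 33250 and 30080 FPKM in wild type and 31390 and 22020 FPKM in knockout. Among 14 tested markers of small peritoneal macrophages, monocytes and dendritic cells, Ly6c2 was called higher and Cd209a lower, against the same 0.761% and 0.2%. Cd74, the class II invariant chain, was level at 1716 and 2405 against 1811 and 2324 FPKM. Of 12 tested B cell markers 10 lay above 0 in both pairs, against 32.4% of all genes, and 2 below, with a median of 0.29 and no call by limma. Summed, B cell markers were at 502 and 505 FPKM in wild type and 582 and 615 FPKM in knockout. Of 9 tested mast cell markers 6 lay below 0 in both pairs and 1 above, with a median of -0.48 and no call, and the list summed to 499.9 and 831 FPKM in wild type and 416 and 646 FPKM in knockout. Their part in the other differences was not tested. Of 17 neutrophil markers measured, 6 were listed at 0 in all 4 libraries, among them the granule gene Elane, and 7 were tested, of which 4 lay above 0 in both pairs and 1 below (median 0.58). Mmp9 was the one called, at 11.1 and 16.8 FPKM in wild type and 54.5 and 55.1 FPKM in knockout. The neutrophil list summed to 245 and 117 FPKM in wild type and 377 and 184 FPKM in knockout, and its part in the differences of Mmp9 and of Lcn2, which neutrophils also store, was not tested. Fibroblast markers stood apart in wild type with nicotine and LPS, at a summed 28.5 FPKM against 2.39 to 3.41 FPKM in the other 3 libraries, with Dcn, decorin, at 10.7 FPKM there and no more than 1.803 FPKM elsewhere. Their part in the differences of the nicotine-LPS pair was not tested.

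Many of the differences with LPS were also there without it. Of the 151 genes at least 2-fold higher in both pairs with LPS, 135 lay above 0 in both pairs without LPS and 76 (50.3%) were at least 2-fold higher there too. Of the 49 lower genes, 44 lay below 0 in both pairs without LPS and 22 (44.9%) were at least 2-fold lower. Without LPS, 187 genes were at least 2-fold higher in both pairs (2.33%) and 66 lower (0.824%), and the shared genes made up 40.6% and 33.3% of these. Ly6i was at 0.927 and 1.07 FPKM in wild type and 95.3 and 46.0 FPKM in knockout without LPS, in the order vehicle then nicotine, and Vsig4 at 165 and 96.9 against 7.93 and 3.57 FPKM. Apoe was at 14410 and 10920 against 3036 and 3232 FPKM, so its level hardly moved with LPS in either genotype.

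**Figure D5:**
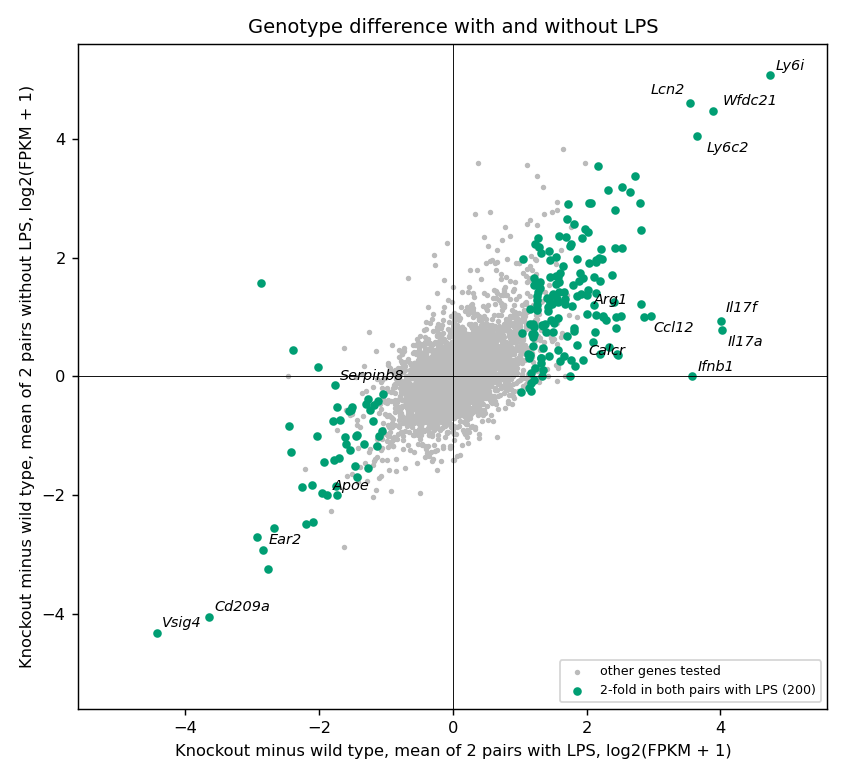
Mean knockout minus wild type difference on the scale log2(FPKM + 1) over the 2 pairs with LPS (x axis) and over the 2 pairs without LPS (y axis); each point is a gene. Of the 200 genes at least 2-fold different in both pairs with LPS (green), most lie on the same side of 0 on both axes, while Ifnb1, Il17a and Il17f lie far closer to 0 on the y axis than on the x axis.

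A smaller set was beyond 2-fold with LPS and within 2-fold without it, on the scale log2(FPKM + 1). That scale flattens ratios of values near 0. With nicotine and no LPS, Il17f was at 0.164 FPKM in wild type and 1.33 FPKM in knockout, and Il17a at 0.0824 and 0.911 FPKM. Lying within 2-fold without LPS therefore does not mean that the genotypes were level there. Of the 151 higher genes, 40 were within 2-fold in both pairs without LPS, and of the 49 lower genes 13 were. Among the called genes the genotype-by-LPS term, the difference with LPS minus that without, was highest for Ifnb1 at 3.58 ± 0.60, Il17a at 3.24 ± 0.57 and Il17f at 3.07 ± 0.38, followed by Ccl12, Pydc3 and Calcr at 1.86, 1.83 and 1.67. No genotype-by-LPS term passed in the fit of all 8 libraries with limma, which left 2 residual degrees of freedom. The smallest adjusted p was 0.286, and 686 of 8014 genes had an unadjusted p under 0.05. That these genes respond to LPS differently between the genotypes is therefore not shown, and leaving out either library with nicotine and LPS gave 3 calls, any other library none.

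The 2 pairs with LPS also differed from each other in ways that 1 library a group cannot test. The summed level of the cytokine list was lower when nicotine preceded LPS in both genotypes: it was 48270 FPKM in wild type with LPS and 5258 FPKM with nicotine and LPS, and 48410 and 8203 FPKM in knockout. Single genes did not all follow the sum, since Il10 was higher with nicotine and LPS than with LPS alone in both genotypes, and Ifnb1 was in wild type. The genes whose knockout minus wild type difference was most above that of the LPS pair in the nicotine-LPS pair were Csf2, Cxcl3, Il1b, Erdr1, Ccl17 and Lcn2. Csf2, encoding the growth factor GM-CSF, was at 604 FPKM in wild type with LPS against 24.1 FPKM in knockout, and at 0.607 against 3.05 FPKM with nicotine and LPS. Cxcl3 was at 2188 against 990 FPKM and at 19.2 against 205 FPKM. The genes at the other end were Fap, Cd244, Slc1a2, Dcn, Pde7b and Sparc, of which Fap, Dcn and Sparc are fibroblast genes that were high only in the wild type library with nicotine and LPS. Fap was at 12.9 FPKM there and at no more than 1.01 FPKM in the other 3 libraries.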

How the data were processed

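RNA was sequenced from 8 groups of cultured peritoneal macrophages, 1 library each; 4 of them enter the comparison. Per the labels' protocols, poly(A) RNA went into a kit that does not mark strand, so overlapping genes on opposite strands cannot be told apart. The authors deposited 1 FPKM value per gene and library. CASAVA 1.8, HISAT2, Cufflinks, Cuffdiff and mm10 are named in the submitters' processing notes without roles. How libraries were scaled to each other is not given in the sources used here. FPKM holds no depth, so counting intervals were not computed.

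Of 24341 lines, 2 repeated symbols were reduced to the line with the highest mean. Differences on log2(FPKM + 1) were tested for genes with at least 5 FPKM in any of the 4 libraries with limma 3.58.1 (R 4.3.3, trend on expression, nicotine as a term, Benjamini-Hochberg adjustment at 0.05). The genotype-by-LPS term came from all 8 libraries. Fits were also run on simulated data, with genotype differences set only with LPS and equal in both pairs. Pairs that differ from each other were not simulated, so that run says nothing of such genes. Tables and figures used Python 3.11.15, pandas 2.3.3, NumPy 2.4.6 and Matplotlib 3.10.9. Positions are from GENCODE M21 on GRCm38, matched by symbol for 96.3% of tested genes, and promoters from RefSeq (GRCm38.p6).

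The members and the 34 gene lists were chosen with earlier results of these data known. Named genes are the 12 highest and 12 lowest by the smaller of the 2 pair differences, without predicted genes, Rik genes, small RNA genes and 25 symbols that read as dates. To these were added list members at the ends or called, the genes of the question, the ends of the genotype-by-LPS term among called genes, and the ends of the difference between the pairs. Some genes that this rule or the lists name are not reported here. Ifng, Il22, Il23r and the members given as examples of a list were chosen after their values were seen. Alternatives were the pseudocount (0.1 or 5), the filter, quantile or median scaling, other model terms, and leaving out libraries.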

Additional observations from a re-analysis of the deposited data

How the results depend on the processing

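Of the 77 genes that limma called, 38 were among the 39 called with a pseudocount of 0.1, 13 among the 13 called with a mean of at least 5 FPKM, 77 among the 191 called after median centring, 69 among the 178 called in the fit of all 8 libraries and 18 among the 20 called with no trend on expression. No gene was called without a filter (1620 genes with an unadjusted p under 0.05) or with genotype as the only term (91 genes). Leaving out 1 of the 4 libraries gave 234 to 320 calls, 52 to 60 of them shared. Those fits took the spread only from the 4 libraries without LPS, because the remaining libraries with LPS were fitted exactly. Libraries with LPS are thus assumed to vary like those without it, and the remaining pair alone gave the estimate.

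Genes at least 2-fold different in both pairs numbered 200, against 111 with a pseudocount of 5, 556 at a 1.5-fold limit and 67 at a 3-fold limit. Calls within the gene lists numbered 20, against 12 with a pseudocount of 0.1, 4 with the mean filter, 46 after median centring, 40 in the fit of all 8 libraries, 7 with no trend, 0 without a filter, 0 with genotype alone, and 38 to 101 with 1 library left out. Of the 24 genes named by size 21 were called, against 10 with the mean filter, 0 without a filter and 0 with genotype alone. The genotype-by-LPS term gave 0 to 3 calls with 1 library left out.

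Differences that changed sign were of genes that were not called. Under quantile normalization Tnf was at 0.029 and Il12b at -0.016. With 1 library left out, differences ran from -0.12 to 4.07 for Il1b, -0.45 to 0.56 for Il12b, -0.29 to 0.090 for Jak2, -0.18 to 0.50 for Socs3 and -1.08 to 0.13 for Hmox1; each end is the difference of 1 pair. The cause of the other changes was not tested. With no fragment depth and 1 library a group, the precision of single FPKM values is unknown.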
